A study of Mus musculus with 2 samples.

Results

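The natriuretic peptide system was examined as 8 genes, chosen by name: the hormones Nppa, Nppb and Nppc, their receptors Npr1, Npr2 and Npr3, and the processing enzymes Corin and Furin. All 8 were found among the 49980 gene spans of the RefSeq table (assembly GRCm38.p6, the build that mm10 names). The measurement was ChIP-seq, chromatin immunoprecipitation followed by sequencing, for VDR, the ligand-activated transcription factor through which vitamin D acts, in left ventricles of mouse embryos at stage E16.5. There was 1 library from embryos of mothers on a normal diet and 1 from embryos of mothers on a vitamin D deficient diet. The labels give no strain, sex, litter or number of pooled embryos, and name no other treatment. With 1 library per diet nothing could be tested between diets, so every difference below is one between these libraries and has no replicate check. A peak list holds positions and no expression values, so the tissue label was not checked against marker genes.

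Natriuretic peptides are hormones made from longer precursors. Atrial natriuretic peptide (Nppa) and B-type natriuretic peptide (Nppb) are secreted by heart muscle cells and promote salt excretion and vessel relaxation, and both are made by the ventricle before birth. C-type natriuretic peptide (Nppc) acts locally, in vessels and in growing bone. Npr1 and Npr2 are membrane receptors that make cyclic GMP when the hormone binds, Npr1 for the atrial and B-type peptides and Npr2 for the C-type peptide, whereas Npr3 binds all of them and clears them from the circulation.

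The peaks of a gene were those whose summit, the position of highest signal, lay inside the gene span or within 50 kb of either end. All 8 genes had such a peak in the normal-diet list and all 8 had one in the deficient-diet list. By the same rule 64.5% of all genes had a normal-diet peak, 75.2% a deficient-diet peak and 57.7% both. Among protein-coding genes alone the shares were 74.5%, 82.9% and 69.0%, so a peak within 50 kb was common. Inside the gene itself 5 of the 8 had a normal-diet summit (Nppc, Npr1, Npr2, Corin and Furin) and 5 a deficient-diet summit (Nppc, Npr1, Npr2, Npr3 and Corin), where 19.7% and 25.3% of all genes, and 35.4% and 43.8% of protein-coding genes, did. The windows held 16 different normal-diet peaks and 30 different deficient-diet peaks in 1.05 Mb. Nppa and Nppb lie next to each other on chromosome 4, and the deficient-diet peak that falls in both of their windows was counted 1 time. The density per Mb was 15.3 normal-diet and 28.7 deficient-diet peaks, against 8.77 and 14.1 over the assembled chromosomes, which also include regions without genes. The farthest normal-diet summit inside a window lay 48842 bp from Furin and the nearest outside lay 50379 bp from Npr2. In the deficient-diet list these were 48971 bp (Npr1) and 52726 bp (Npr2).

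**Figure D1:**
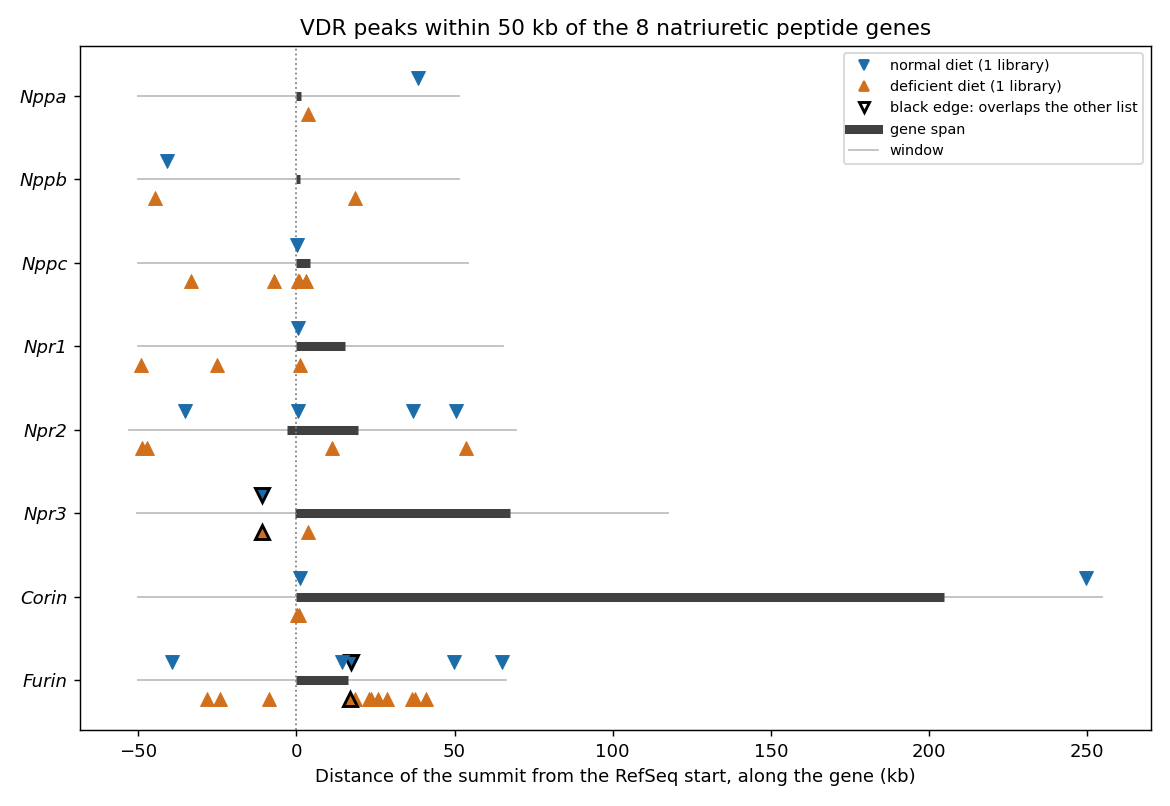
Position of every called summit along each gene, in kb from the RefSeq start of transcription (dotted line; the most upstream start for Furin), with the gene span as a thick bar and the window as a thin line. Downward triangles are normal-diet peaks, upward triangles deficient-diet peaks, and a black edge marks overlap with the other list, seen at Npr3 and at Furin.

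Few of these peaks were held in common. Only 2 sites had overlapping peaks in both lists (1 bp or more), 1 upstream of Npr3 and 1 beyond the 3′ end of Furin. This made 2 of 16 normal-diet peaks (12.5%, exact 95% binomial interval 1.55 to 38.3%) and 2 of 30 deficient-diet peaks (6.67%, 0.818 to 22.1%). Over whole lists such a partner was found for 34.0% of the peaks under normal diet and for 21.3% of those under the deficient one. Both intervals include the share of the whole list, and they cover counting error only. Counted by gene, 2 of 8 had a shared site in their window, where 34.7% of all genes and 43.1% of protein-coding genes had one.

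At 3 of the genes, Nppc, Npr1 and Corin, both lists had a peak just inside the gene, downstream of the start of transcription, and in each the peaks of the lists lay side by side without overlap. The gap between the nearest peaks was 61 bp at Nppc, 199 bp at Npr1 and 6 bp at Corin. Npr2 had a peak just downstream of its RefSeq start in the normal-diet list alone. The bases just upstream of these 4 starts are printed because they show the promoters beside which the peaks were called. The Fes promoter is added because the shared site near Furin reaches into it. Each line gives the 250 bases before the RefSeq start, 5′ to 3′ on the strand of the gene, on GRCm38.p6. Capitals mark any of 4 hexamers (AGGTCA or its variant GGGTCA, as well as GGTTCA or its variant AGTTCA), the direct-repeat units of nuclear receptor elements, on either strand.
Nppc, chr1:86670574-86670823, minus strand: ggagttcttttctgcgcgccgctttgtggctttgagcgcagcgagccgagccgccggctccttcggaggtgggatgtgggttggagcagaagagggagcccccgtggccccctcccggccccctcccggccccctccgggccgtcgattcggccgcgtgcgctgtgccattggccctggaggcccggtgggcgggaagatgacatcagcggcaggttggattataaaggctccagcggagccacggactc
Npr1, chr3:90465867-90466116, minus strand: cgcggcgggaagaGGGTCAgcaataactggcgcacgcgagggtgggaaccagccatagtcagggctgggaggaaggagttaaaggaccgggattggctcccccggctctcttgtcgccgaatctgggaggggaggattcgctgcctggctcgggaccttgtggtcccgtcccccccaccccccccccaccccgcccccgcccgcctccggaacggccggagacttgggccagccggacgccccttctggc
Corin, chr5:72504541-72504790, minus strand: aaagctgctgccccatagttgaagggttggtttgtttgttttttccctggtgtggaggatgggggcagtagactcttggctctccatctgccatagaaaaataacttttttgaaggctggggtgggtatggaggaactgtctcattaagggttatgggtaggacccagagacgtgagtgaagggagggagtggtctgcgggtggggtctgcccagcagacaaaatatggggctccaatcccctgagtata
Npr2, chr4:43631685-43631934, plus strand: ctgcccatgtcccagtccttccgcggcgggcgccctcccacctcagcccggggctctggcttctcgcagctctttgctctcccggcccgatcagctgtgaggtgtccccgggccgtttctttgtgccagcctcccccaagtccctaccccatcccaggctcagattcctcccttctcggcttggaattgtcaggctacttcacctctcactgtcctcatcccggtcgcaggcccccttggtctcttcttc
Fes, chr7:80387947-80388196, minus strand: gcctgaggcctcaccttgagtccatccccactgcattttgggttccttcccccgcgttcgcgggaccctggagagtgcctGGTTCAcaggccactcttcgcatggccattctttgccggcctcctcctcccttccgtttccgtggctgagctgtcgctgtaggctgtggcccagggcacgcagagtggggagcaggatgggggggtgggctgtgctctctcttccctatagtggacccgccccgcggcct

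Of the 4 printed member promoters, Npr1 alone holds a hexamer, GGGTCA, which begins 237 bases before the start. In RefSeq windows of 300 bases (250 before to 50 after a start), 2 of the 9 windows of the 8 genes held any of the 4 hexamers, those of Npr1 and of the second Furin start. Over all 32851 such windows the share was 43.7%, and it was 13.7% for GGGTCA. A DR3 element, the direct repeat of these hexamers with 3 bases between that VDR binds with its partner RXR, was in none of the 9 windows and in 0.0396% of all. These matches describe the printed windows and not the peaks, whose own sequence was not used here. The called peaks at Nppc, Npr1, Corin and Npr2 lie downstream of the printed bases.

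Among the hormone genes, neither Nppa nor Nppb had a summit within 2 kb of its start in either list. Nppa, the atrial peptide gene (chr4:148000722-148002074, plus strand), had 1 peak per list. The normal-diet summit lay 37077 bp past the gene, 338 bp upstream of the start of Clcn6. The deficient-diet summit lay 2430 bp past the gene, inside the span of Clcn6, a chloride transporter gene, 245 bp from an end of it. Its fold enrichment, the authors' ratio of summit signal to local background, was 3.20, and 27 fragments covered it over a background of 7.76. The normal-diet summit rested on 14 fragments over 3.42, with a fold enrichment of 3.39.

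Nppb, the B-type peptide gene (chr4:147985786-147987205), had no peak inside it. Its normal-diet summit lay 40815 bp upstream and 1 of its 2 deficient-diet summits 44495 bp upstream, both in the span of 2510039O18Rik and 3680 bp apart. They rested on 14 fragments over 2.65 and on 21 over 5.82. The deficient-diet summit there was 396 bp downstream of the start of 2510039O18Rik. The other deficient-diet peak was the one in Clcn6, 17299 bp past Nppb.

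Nppc, the C-type peptide gene (chr1:86666293-86670573, minus strand), differed from the other hormone genes in having peaks inside the gene in both lists. The normal-diet peak (86670209 to 86670524) had its summit 214 bp downstream of the start. It was covered by 17 fragments over a background of 2.71, with a fold enrichment of 4.85. The deficient-diet list had 3 peaks inside the gene, with summits 494, 749 and 3051 bp downstream of the start. They were covered by 25, 24 and 20 fragments over backgrounds of 9.70, 7.76 and 5.38, with fold enrichments of 2.43, 2.85 and 3.29. Of the 5 deficient-diet peaks in the Nppc window the other 2 were upstream, at 7189 bp and at 33131 bp, the latter 100 bp upstream of the start of Dis3l2. The normal-diet peak was thus the closest to the start and stood above the median of its list, whereas all 5 deficient-diet peaks stood below theirs, at ranks of 24780 or lower in strength. At least 5 deficient-diet peaks were found at 20.9% of all genes.

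**Figure D2:**
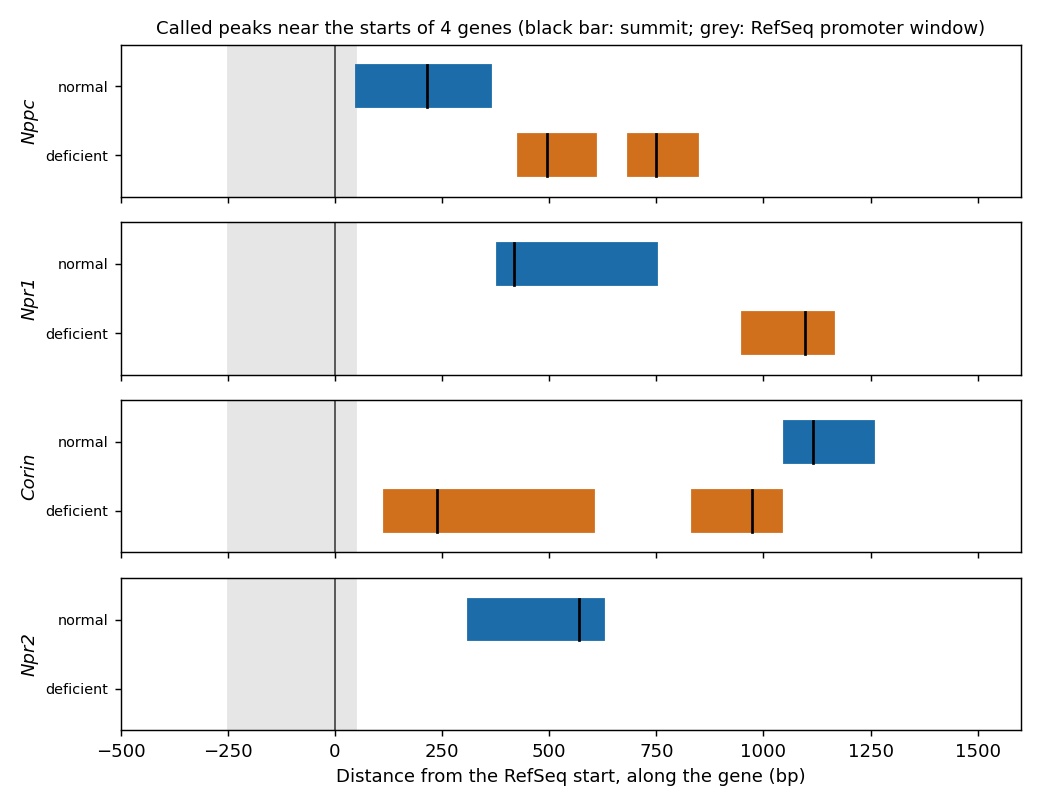
Called peaks as boxes with the summit as a black bar, in bp from the RefSeq start along the gene, for Nppc, Npr1, Corin and Npr2, with the normal-diet list above the deficient-diet list. The grey band is the RefSeq promoter window; peaks of the lists lie side by side at the first 3 genes, with gaps of 61, 199 and 6 bp, and Npr2 has a normal-diet peak alone.

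Among the receptors, Npr1 (chr3:90450591-90465928, minus strand), the receptor for the atrial and B-type peptides, carried the deficient-diet peak with the highest -log10 q and the highest fold enrichment at any of the 8 genes. The deficient-diet peak at 90464702 to 90464916 had its summit 1096 bp downstream of the start. It was covered by 33 fragments over a background of 5.82, with a fold enrichment of 4.99 and a -log10 q (the authors' adjusted p-value) of 10.17, and ranked 461 of 37661, in the top 1.22% of its list. The normal-diet peak (90465116 to 90465487) lay closer to the start, with its summit 418 bp downstream, and had 17 fragments over 3.00, a fold enrichment of 4.51 and a -log10 q of 4.88, at rank 8496 of 23456. The summits were 678 bp apart. The other 2 deficient-diet peaks lay upstream at neighbouring genes, 1 at 5 bp from an end of Snapin and 1 at 464 bp past the start of S100a13.

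Npr2 (chr4:43629015-43651437, plus strand), the receptor for the C-type peptide, had 4 peaks in each list and none in common. Inside the gene lay 1 of each. The normal-diet summit was 570 bp downstream of the RefSeq start (43631935) and 3490 bp from the nearest end of the gene span. It had 17 fragments over a background of 4.28 and a fold enrichment of 3.41. The deficient-diet summit was 11381 bp downstream, with 21 fragments over 5.38 and a fold enrichment of 3.45, so that the summits inside the gene were 10811 bp apart. The other peaks lay from 17480 to 45834 bp outside the gene. A normal-diet summit fell 54 bp upstream of the start of Tmem8b. Its peak lay wholly (255 bp) in the RefSeq promoter window of Fam221b, on the opposite strand, and by 192 bp in that of Tmem8b. It is thus not particular to either gene. Deficient-diet summits fell 355 bp upstream and 1313 bp downstream of the start of Msmp.

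Npr3 (chr15:11839896-11907837, minus strand), the clearance receptor, had 1 of the 2 common sites. It lay upstream of the gene, outside any gene span, at 11918177 to 11918652 by the normal-diet peak and at 11918055 to 11918537 by the deficient-diet peak. The peaks overlapped by 361 bp and their summits, 10985 and 10799 bp upstream of the start, were 186 bp apart. The site was covered by 14 fragments over 2.65 in the normal-diet library and by 24 over 5.38 in the deficient-diet library. Fold enrichment was 4.11 and 3.92, at ranks 17509 of 23456 and 6816 of 37661. The deficient-diet list had 1 further peak, inside the gene 3586 bp downstream of the start, with 19 fragments.

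Corin, a membrane protease that cuts the atrial peptide precursor, has the longest span of the set (chr5:72299948-72504540, minus strand; 204593 bp), yet the summits inside it all lay within 1115 bp of the start. The deficient-diet list had 2 there, 239 and 974 bp downstream, with 21 and 22 fragments and fold enrichments of 2.82 and 3.30. The normal-diet list had 1, at 1115 bp, with 17 fragments over a background 2.26 times the genome-wide value and a fold enrichment of 2.58. That normal-diet peak ranked 23454 of 23456, with a -log10 q of 2.02, and its summit was 141 bp from the nearer deficient-diet summit. The remaining normal-diet peak lay 44872 bp past the 3′ end, inside Atp10d.

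Furin, a protease of the secretory pathway that processes the B-type and C-type precursors among many others, had the most peaks of the 8 genes (chr7:80389194-80405441, minus strand). Its 5 normal-diet peaks were matched or exceeded by 11.0% of all genes, and its 12 deficient-diet peaks by 3.17%. Only 1 of these, a normal-diet peak, was inside the gene, 14437 bp downstream of the start, and it had the highest -log10 q and fold enrichment of the 16 normal-diet peaks, with 18 fragments over 2.65, a fold enrichment of 5.20 and a -log10 q of 6.22. No deficient-diet summit lay inside Furin. The deficient-diet peaks were spread on both sides, 9 past the 3′ end in and around Fes and Man2a2 and 3 upstream of the start, at 8720, 24247 and 28233 bp.

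The shared site near Furin lay between Furin and Fes, a tyrosine kinase gene on the same strand. The normal-diet peak ran from 80388126 to 80388363 and its partner from 80388157 to 80388550, an overlap of 207 bp with summits 114 bp apart. The summits were 989 and 875 bp past the 3′ end of Furin, but 259 and 373 bp upstream of the start of Fes, so the nearer start was that of Fes. It was covered by 16 fragments over 2.65 and by 21 over 5.38, with fold enrichments of 4.65 and 3.45. In the Fes sequence printed above, the first 71 bases lie in the normal-diet peak and the first 40 in both. The hexamer GGTTCA in capitals begins 170 bases before the start and lies outside both peaks, whose near edges are 180 and 211 bases before it.

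**Figure D3:**
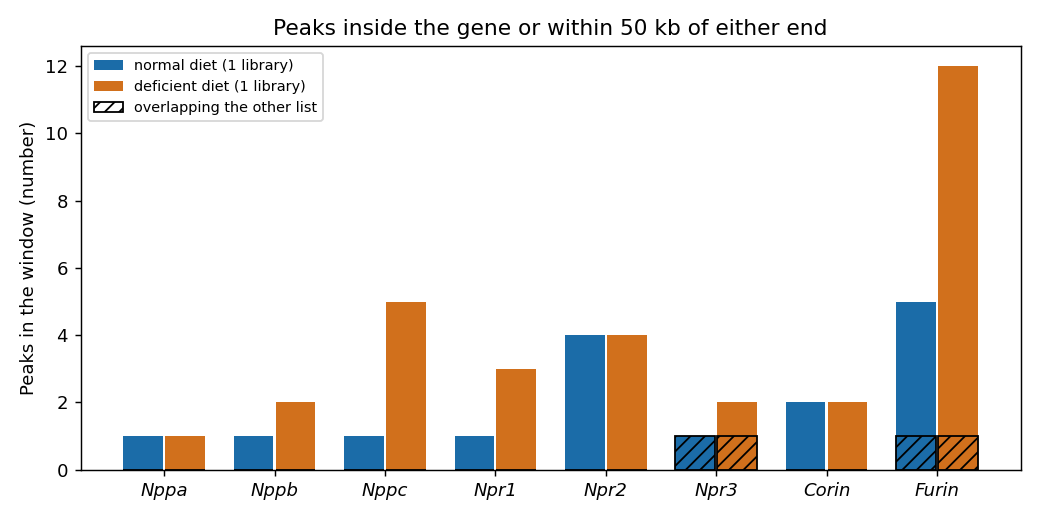
Number of peaks in the window of each gene, as bars from 0, for the normal-diet and deficient-diet lists (1 library each, hence no error bars), with hatching for peaks that overlap the other list. Furin has the most, 5 and 12, and Npr3 and Furin have 1 shared peak in each list.

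The deficient-diet list had more peaks at 5 genes (Nppb, Nppc, Npr1, Npr3 and Furin) and as many at Nppa, Npr2 and Corin; the normal-diet list had more at none. Over all genes, 50.6% had more deficient-diet and 16.8% more normal-diet peaks. Summed over the windows the ratio was 1.88, against 1.61 for the lengths of the lists, and without Furin it was 1.64, from 18 and 11 peaks. The genome-wide background, as recovered from fold enrichment and p, was 2.03 times as high in the deficient-diet library (5.38 against 2.65 fragments); no read totals were used here, and the value also depends on fragment length and scaling. When the deficient-diet list was trimmed to its 23456 strongest peaks the order turned, with 13 deficient-diet peaks against 16, and Nppc had no deficient-diet peak left. Of the 8 genes, 1 then had more deficient-diet and 3 more normal-diet peaks, where 29.6% and 32.0% of all genes did. The higher number in the whole list cannot be told apart from the greater length of that list and its higher background.

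The median fold enrichment and -log10 q of the peaks at these genes lay below those of the whole lists, though single peaks ranked high. Median fragments at the summit were 16 at these genes and 16 in the whole normal-diet list, and 21 against 22 for the deficient diet. By -log10 q, 6 of the 16 normal-diet peaks stood in the upper 50% of their list, as did 9 of the 30 from the other library, and 1, that of Npr1, was in the top 10%. Median fold enrichment was 4.30 for the normal diet, from 2.58 to 5.20, where the whole list had 4.38. It was 3.26 for the deficient diet, from 2.43 to 4.99, where the whole list had 3.45. A -log10 q of 5 or more was reached by 2 of 16 normal-diet peaks (12.5%, against 35.0% of the list) and by 6 of 30 deficient-diet peaks (20%, against 24.3%). Summits were covered by 14 to 18 fragments in the normal-diet and 17 to 33 in the deficient-diet library, so each site rests on few fragments. The background at the summit was at most 2.26 times the genome-wide value in the normal-diet and 1.80 times in the deficient-diet library.

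**Figure D4:**
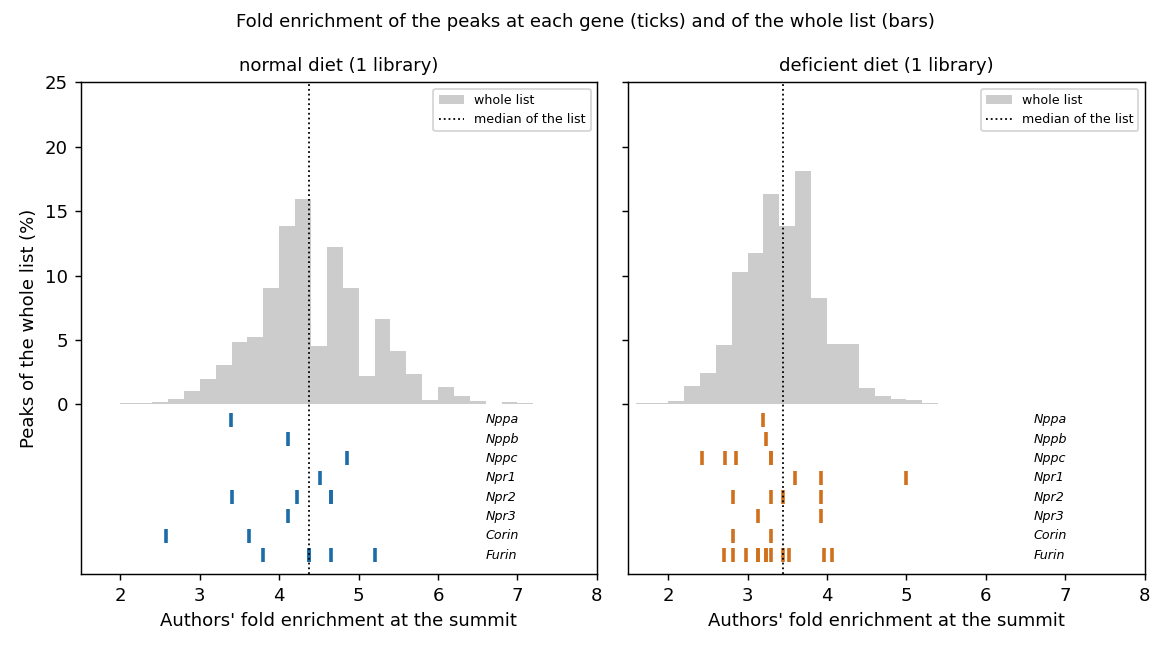
Authors' fold enrichment at the summit for the whole list (grey bars, percent of peaks) and for each peak at the 8 genes (coloured ticks), with the list median dotted; a peak in the windows of both Nppa and Nppb is drawn under Nppa. The ticks lie on both sides of the list medians, and the Npr1 peak at 4.99 is the farthest right of the deficient-diet ticks.

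Many of the summits sat close to a start of transcription. In the normal-diet list 7 of 16 (43.8%) lay within 1 kb of a RefSeq start, against 14.4% of the whole list. Of the deficient-diet summits 9 of 30 (30%) did, against 10.4%. The windows were drawn around genes, so higher shares than in the whole list follow in part from the rule. Of these summits 3 normal-diet and 4 deficient-diet ones were at starts of the 8 genes (Nppc, Npr1 and Npr2; Nppc and Corin), and 4 and 5 at starts of neighbours. The nearest RefSeq start was that of a neighbouring gene for 10 of the 16 normal-diet summits and for 18 of the 30 others.

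A distance of 2 kb was chosen after the positions were seen. Within it, 4 of the 8 genes had a normal-diet summit at a RefSeq start, 3 a deficient-diet summit and 3 both. The shares beside these counts are of genes with a RefSeq promoter window, 27025 genes, of which 17492 were protein-coding. They were 19.9%, 22.7% and 9.40% of those protein-coding genes, and 16.1%, 18.9% and 7.51% of the 27025 genes. Within 1 kb the counts were 3, 2 and 1, where 13.5%, 15.1% and 5.57% of the 27025 genes did. The 3 genes with both were Nppc, Npr1 and Corin, none with a shared peak there. Of protein-coding genes with summits of both lists within 2 kb of a start, 28.5% likewise had no shared peak at it. With 3 genes, this is a description of the positions and no test was made.

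The wider pathway was represented by 21 genes for precursor cutting, hormone breakdown, cyclic GMP synthesis and cyclic GMP action, with Clcn6, whose window overlaps that of Nppa. Their windows were longer, with a median of 184 kb against 116 kb for the 8 genes. A normal-diet peak was found at 14 of 21 (66.7%, against 64.5% of all genes), a deficient-diet peak at 15 (71.4%, against 75.2%), both at 11 and neither at 3 (Gucy1b1, Rgs2 and Rgs4). A shared site was found at 8 of 21 (38.1%, against 34.7% of all genes). These shares were near those of all genes and below those of protein-coding genes. The latter were 74.5% (normal-diet peak), 82.9% (deficient-diet peak) and 43.1% (shared site). The genes with a shared site were Ide, Pcsk5, Pcsk6, Prkg1, Pde2a, Pde3a, Pde9a and Vasp.

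Pde3a, Prkg1, Pcsk6, Pde2a and Ide had shared sites inside the gene. At Pde3a, a cyclic nucleotide phosphodiesterase of heart muscle that cyclic GMP inhibits, the normal-diet peak from 141250028 to 141250544 on chromosome 6 had a fold enrichment of 5.75 and 20 fragments, and 2 deficient-diet peaks overlapped it, with 23 and 20 fragments. A further Pde3a site was shared at 141362337 to 141362997. Prkg1, the cyclic GMP-dependent protein kinase, had 6 normal-diet and 7 deficient-diet peaks in a window of 1301 kb, 3 and 4 of them shared and all of these inside the gene. At Pcsk6, a convertase that activates corin, the deficient-diet list had 15 peaks, 13 of them inside the gene or within 1 kb. The normal-diet list had 4. These numbers were reached by 1.5% and 16.3% of all genes, but those shares do not allow for length, and the Pcsk6 window was 288 kb. Of the Pcsk6 peaks, 2 normal-diet ones were shared, both inside the gene. Their summits were at 65869338 and 66001295 on chromosome 7, with 16 and 15 fragments, and 3 deficient-diet peaks overlapped them. At Vasp, a substrate of the cyclic GMP-dependent kinase, 2 sites were shared, 7559 and 37874 bp from the gene by the normal-diet summits. Ide, an enzyme that degrades natriuretic peptides, had 1 of its 2 shared sites inside the gene, with 16 and 30 fragments.

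Pde2a and Pde9a, which break down cyclic GMP, each had 1 shared site, inside the gene at Pde2a and 35880 bp from it at Pde9a by the normal-diet summit, and Pcsk5, a convertase, had 1 at 37901 bp. Without a shared site, Gucy2c (3 deficient-diet summits), Irag1 (1 normal-diet and 3 deficient-diet), Dpp4 and Ostn (1 deficient-diet each) and Prkg2 (1 normal-diet) had summits inside the gene or within 1 kb. Mme and Pln are added for their roles and were picked after their values were seen. Mme, the gene of neprilysin, the main peptidase for natriuretic peptides, had 1 deficient-diet peak in its window, outside the gene, and no normal-diet peak. The genes Pde5a and Gucy1a1, which break down and make cyclic GMP, each had 1 normal-diet peak inside the gene or within 1 kb and no deficient-diet peak. Pln, the calcium pump inhibitor phospholamban, had 1 deficient-diet peak, beyond 1 kb from the gene. Clcn6, which neighbours Nppa, had 2 normal-diet and 6 deficient-diet peaks and none in common. Of the 21 genes, 14 had more deficient-diet than normal-diet peaks and 4 (Pcsk5, Gucy1a1, Prkg2 and Pde5a) the reverse, with the deficient-diet list 1.61 times as long. Over all genes these shares were 50.6% and 16.8%. With lists of equal length the counts were 9 and 7, where the shares of all genes were 29.6% and 32.0%. At a -log10 q of 5 or more, 13 of the 21 genes had a normal-diet and 9 a deficient-diet peak. That cut keeps 35.0% of the normal-diet and 24.3% of the deficient-diet list. No share over all genes is given for it, so 13 against 9 cannot be read as a trait of the pathway.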

How the data were processed

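VDR-bound DNA was profiled in 2 libraries, 1 per maternal diet. The authors deposited 1 narrowPeak list per sample on mm10, per the file headers, and MACS2 and SAMtools are named in the submitters' processing notes. The aligner, thresholds and control library are not given in the sources used here. The deposited values are, per peak, the fold enrichment (a ratio over local background) and its p-value and q-value, each as -log10. They are the authors' own and were used to describe and rank peaks within a list. Ranks are by -log10 q, then fold enrichment, and ties are ordered by chromosome and position. Many peaks tie, so exact ranks partly reflect position. Deficient-diet peaks with a fold enrichment of 3.29 and a -log10 q of 3.55 ranked 24780 at Nppc and 26463 at Npr2. In the normal-diet list the end and the score were joined by a point and were split there; 1 line without a start was left out, leaving 23456 peaks.

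Fragments at the summit and background were recovered from fold enrichment and -log10 p, taking the former as (fragments + 1)/(background + 1) and the latter as a Poisson probability; no header states this reading. The lowest background of a list was read as genome-wide. Peaks were assigned by summit (50 kb), called shared at 1 bp of overlap, and set beside the same count over all RefSeq genes. Counts of genes with a summit near a start were set beside those over the 27025 genes with a RefSeq promoter window. Distances are from RefSeq starts. For the Furin gene the more upstream of its 2 starts was used. Irag1 is listed under an older symbol, Mrvi1. Intervals are exact binomial (Clopper-Pearson). The upper limits given for a share of 0% are not exact: each is 3 divided by the number of peaks, an approximation. Computation used Python 3.11.15, pandas 2.3.3 and scipy 1.17.1, and overlap and assignment were tested on simulated data. All 8 genes, with every peak in their windows, were to be named, and of the pathway list those with a shared site or a summit in or within 1 kb of the gene. A motif count within peaks was planned and not run, since no genome sequence was used. The members, the lists and the rules were chosen with earlier results of these data known.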

Additional observations from a re-analysis of the deposited data

How the results depend on the processing

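For 14 results 75 values were recomputed. Of these, 51 kept within the 95% interval of the share or 1.5 times the count, while 24 fell outside; the cause was not tested except where the setting itself gives it. At a -log10 q of 5 or more, which leaves fewer peaks by construction, 2 peaks at 2 genes were left for the normal diet and 6 at 4 genes for the deficient diet. None was shared (0% of 2 and 0% of 6, the latter allowing up to 50%), 0 genes had a shared site, 0 had summits of both lists near a start, and 9 pathway genes had a deficient-diet peak. Lists of equal length left 13 deficient-diet peaks; 1 of the 8 genes then had more deficient-diet and 3 more normal-diet peaks, and of the pathway genes 9 and 7, counts added after the data were seen. A window of 20 kb held 8 and 18 peaks and one of 100 kb 37 and 55, with a shared site at 4 genes. Counting summits within 100 bp as shared gave 0% of 16 and 0% of 30 (allowing up to 18.8% and 10%), hence 0 genes with a shared site. 3 kinds of setting were added after the data were seen: without Furin, 18 deficient-diet peaks remained of 30; starts within 1 kb left 1 gene with both lists, and 5 kb gave 3; and peaks within 250 bp edge to edge gave shares of 31.2% (normal diet) and 16.7% (deficient diet). Summits of both lists near a start under the other settings were also added. For shared peaks and shared sites under these other settings, no share over the whole lists or all genes is given. The 34.0% and 21.3% of the whole lists hold for 1 bp of overlap, so the shares under looser or stricter rules cannot be set beside them. Assignment by any base changed no value. The fold floor, the lowest fold enrichment of the normal-diet list (1.66), changed none either. At the 8 genes it could not, since their deficient-diet peaks began at 2.43 and the normal-diet list was left whole. Lists of equal length likewise could not change a normal-diet count. Such values are among the 51 that kept, so that number does not measure how stable the results are. No paired analysis was possible because the study holds a lone library per diet, which also leaves none to omit. Depth was not varied. By the recovered values sites rest on 14 to 33 fragments, which limits their precision.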
